A study of Homo sapiens with 6 samples.

Results

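Open chromatin around 10 genes of the G2 phase and mitosis was examined in LNCaP, an established human prostate cancer line that responds to androgen. The genes are CDK1, CCNB1, CCNB2, CCNA2, AURKA, PLK1, CDC20, FOXM1, TOP2A and UBE2C, and all 10 could be placed by the hg19 position of their transcription start site (TSS). Peaks were taken as promoter peaks where their nearest base lay within 2 kb of a TSS, and as distal peaks from there to 100 kb. Chromatin accessibility was measured by ATAC-seq, in which a transposase inserts sequencing adapters into open DNA. The 6 libraries fall into 3 groups of 2: cells with a control hairpin (shCON) kept for 72 hours in CDT, which leaves them short of hormone; shCON cells with 72 hours of CDT followed by 3 hours of the androgen dihydrotestosterone (DHT); and cells with a hairpin against RB (shRB) after 72 hours of CDT. All groups thus carry a hairpin and went through CDT. The label of each list names both replicates of its group, so 1 list of peaks stands for 2 libraries, with no spread between replicates and no p-value. Sequencing depth is unknown, no RNA was measured here, and neither the depletion of RB nor the identity of the line could be checked from the lists. Overlapping peaks of the lists were joined into 21031 regions, of which 45 lay within 100 kb of a member: 10 at promoters and 35 distal.

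Genes of this group are switched on late in the cell cycle. The cyclins A2, B1 and B2 activate the kinase CDK1 for entry into mitosis, the kinases AURKA and PLK1 build and control the spindle, CDC20 and UBE2C drive the destruction of cyclins by the anaphase-promoting complex, TOP2A untangles chromosomes, and FOXM1 is a transcription factor for many of the others. Their promoters are known for CCAAT boxes, bound by NF-Y, and for the cell cycle genes homology region (CHR), through which the MuvB complex represses them in quiescence and, with B-MYB and FOXM1, activates them later. RB itself acts mainly by holding E2F factors, which control the preceding wave of replication genes.

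Promoters of 7 members were in the RefSeq table used here: CDK1, with 2 starts, and CCNB1, CCNB2, CCNA2, PLK1, CDC20 and TOP2A. The sequences below are shown because CCNB2, CCNA2 and PLK1 were the 3 members whose promoter peak was not listed in every condition, while CDC20 and TOP2A had one in all 3. Each is the 250 bases before the RefSeq start, 5′ to 3′ in the direction of transcription, and capitals mark CHR letters (TTTGAA or TTCGAA) and CCAAT boxes (CCAAT) on either strand. On GRCh38.p14 they lie at chr15:59104896-59105145 (plus strand), chr4:121823884-121824133 (minus), chr16:23678639-23678888 (plus), chr1:43358731-43358980 (plus) and chr17:40417897-40418146 (minus). Peak positions are hg19, and it was not checked whether the RefSeq starts and the hg19 TSS positions are the same bases.
CCNB2: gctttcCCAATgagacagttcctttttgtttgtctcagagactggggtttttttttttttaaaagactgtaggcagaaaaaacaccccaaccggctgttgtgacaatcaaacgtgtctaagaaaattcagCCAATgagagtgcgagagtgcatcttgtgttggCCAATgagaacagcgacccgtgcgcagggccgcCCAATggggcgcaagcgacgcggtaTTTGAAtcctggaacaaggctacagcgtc
CCNA2: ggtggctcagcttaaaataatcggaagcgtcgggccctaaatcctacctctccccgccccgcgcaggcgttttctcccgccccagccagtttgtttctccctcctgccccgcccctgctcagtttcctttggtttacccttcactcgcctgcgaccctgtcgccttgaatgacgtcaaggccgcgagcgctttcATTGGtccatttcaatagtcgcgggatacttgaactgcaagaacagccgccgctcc
PLK1: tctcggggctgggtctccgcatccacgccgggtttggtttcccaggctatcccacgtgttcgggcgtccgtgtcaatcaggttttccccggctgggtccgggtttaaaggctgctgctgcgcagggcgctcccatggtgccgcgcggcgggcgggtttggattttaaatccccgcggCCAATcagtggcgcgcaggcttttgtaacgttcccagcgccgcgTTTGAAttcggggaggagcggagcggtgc
CDC20: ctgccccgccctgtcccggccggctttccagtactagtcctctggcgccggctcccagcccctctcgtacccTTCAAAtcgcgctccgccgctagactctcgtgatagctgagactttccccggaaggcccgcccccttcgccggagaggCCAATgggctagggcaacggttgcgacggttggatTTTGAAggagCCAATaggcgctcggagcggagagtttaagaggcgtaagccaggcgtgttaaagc
TOP2A: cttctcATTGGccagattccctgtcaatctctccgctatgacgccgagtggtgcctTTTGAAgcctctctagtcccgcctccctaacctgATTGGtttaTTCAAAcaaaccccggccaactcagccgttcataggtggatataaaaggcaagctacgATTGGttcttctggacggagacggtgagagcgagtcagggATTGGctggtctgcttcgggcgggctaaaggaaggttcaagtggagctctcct

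In the full 300-base windows, which also take in 50 bases after the start, all 7 matched members held a CCAAT box and 5 of 7 held a CHR match. The exceptions for these exact CHR letters were CCNB1 and CCNA2, and variant forms of the element were not searched. Of all 35116 promoters of the same table, 34.6% held CCAAT, 16.4% held the CHR letters and 6.38% held both. Counted by gene over the 15843 protein-coding genes in the table, as the members are, these shares were 42.1%, 17.5% and 7.28%. CCNB2, whose peak was missing after RB knockdown, had 4 CCAAT boxes and 1 CHR match, the same 4 boxes in number as TOP2A, whose peak was in every list. In PLK1 the CHR match lay 29 to 24 bases before the start, as it did in CCNB2. One of these CCAAT and CHR matches overlapped another motif, the CCAAT box at -54 of CCNB2 with a GC box (GGGCGG). GC boxes were in all 7, beside 45.0% of all promoters and 64.3% of protein-coding genes. E2F-type letters (TTCCCGC or TTGGCGC) were in CDK1 alone, 1 of 7, beside 9.23% of promoters and 14.8% of genes. Letters of a motif describe a sequence and do not show that a factor binds. Only the exact letters given were searched, so the lack of a match does not show that an element is absent.

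A wider list of 38 other G2/M genes, such as BUB1, a kinase of the spindle checkpoint, and CENPF, a kinetochore protein, was examined for sequence only, since no hg19 annotation was at hand to place their peaks. Of these, 32 had a promoter in the table. CHR letters were in 26 (81.2%), CCAAT in 23 (71.9%) and both in 19 (59.4%). The shares over all protein-coding genes, given above, were 17.5%, 42.1% and 7.28% in this order. E2F-type letters were in 6 of the 32 (18.8%), beside 14.8% of those genes.

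**Figure D1:**
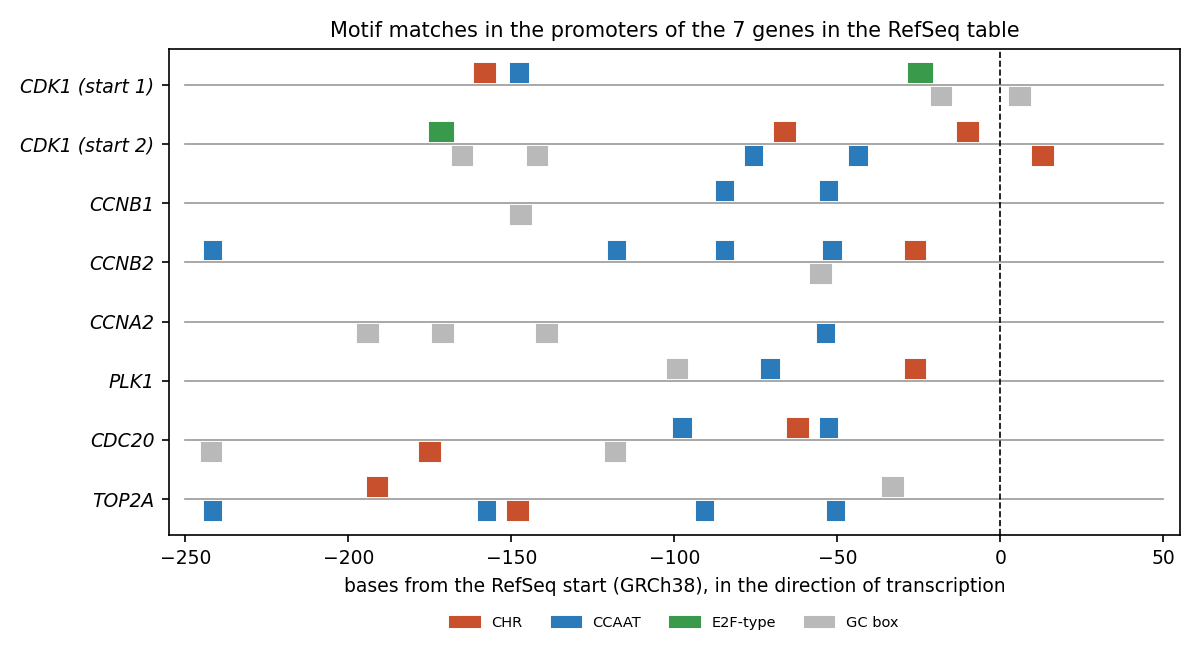
Motif matches in the 300-base promoters of the 7 members in the RefSeq table (2 starts for CDK1), by distance from the start in bases; blocks above a line read in the direction of transcription, blocks below on the opposite strand. CCAAT boxes (blue) appear in every promoter, and the exact CHR letters TTTGAA or TTCGAA (orange) in all but CCNB1 and CCNA2.

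At the promoters, accessibility was listed for most genes of the group in each condition, but not always for the same genes. A promoter peak was found for 9 of 10 members in each shCON list and for 8 in shRB CDT. For comparison, 1.84% (shCON CDT), 1.86% (shCON DHT) and 2.29% (shRB CDT) of all 4 kb tiles of the genome held a peak, although tiles lie anywhere and are not promoters of other genes. CDK1, CCNB1, AURKA, CDC20, FOXM1, TOP2A and UBE2C had their promoter region in all 3 lists, which is 7 of 10, beside 34.0% of all regions of the series. Those regions are not limited to promoters, and no share over the promoters of other genes could be had. The rule takes any peak within 2 kb, but the choice of distance mattered little here: the farthest promoter peak began 531 bases from its TSS (PLK1) and the nearest distal peak 7.29 kb away (CDC20). The TSS base itself lay inside a peak for 8 members in each list. CCNB2 was among the 8 in both shCON lists and CCNA2 took that place in shRB CDT, while the PLK1 TSS lay in no peak. Of the promoter peaks, 3 of 9 in shCON CDT (33.3%), 5 of 11 in shCON DHT (45.5%) and 5 of 8 in shRB CDT (62.5%) were at the top score of 1000, beside 32.5%, 27.0% and 35.1% of the whole lists.

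**Figure D2:**
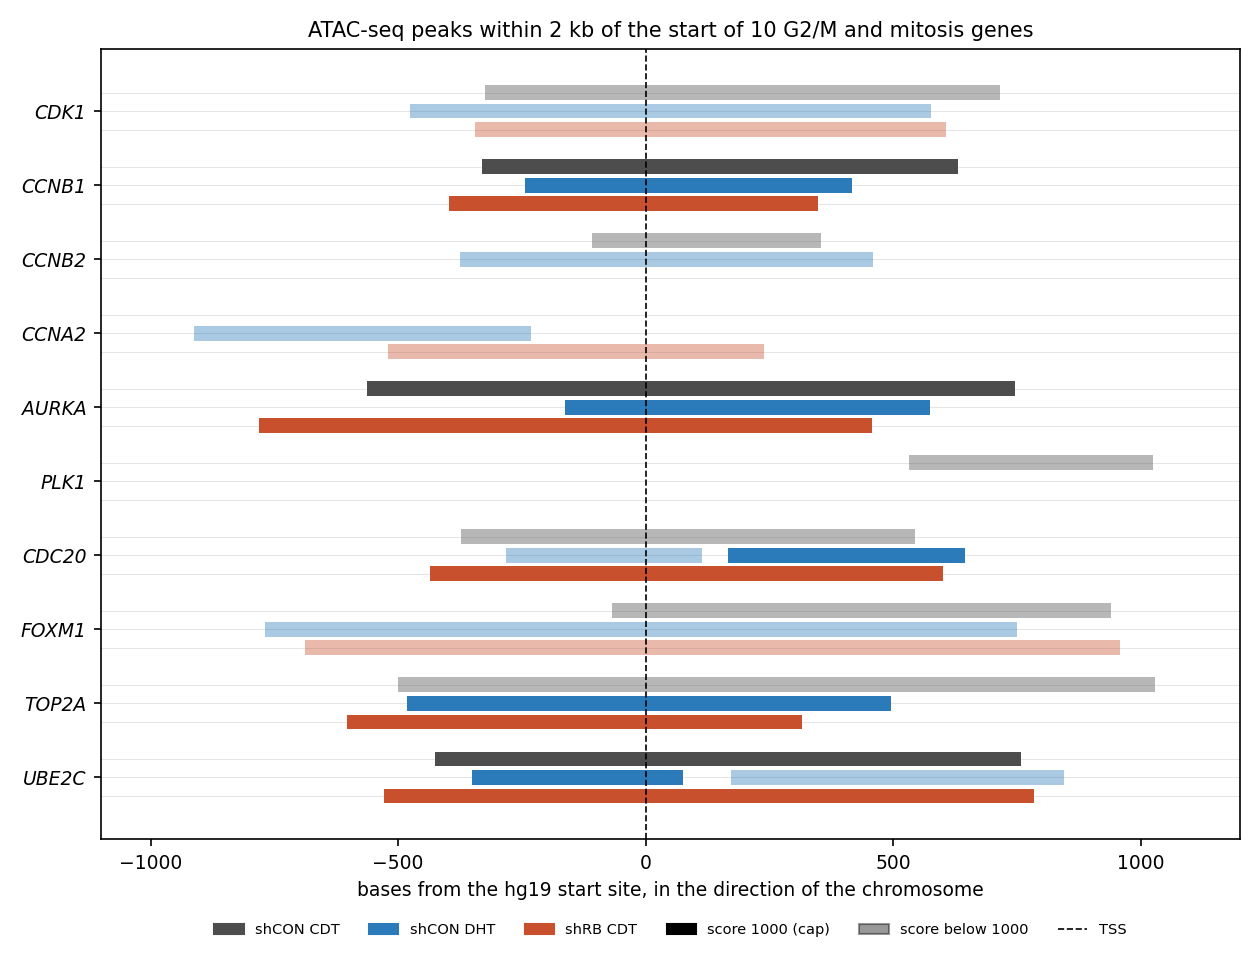
Promoter peaks of the 10 members, as bars from the first to the last base relative to the hg19 TSS (dashed line), for shCON CDT (grey), shCON DHT (blue) and shRB CDT (orange); solid bars are at the score cap of 1000 and pale bars below it. The genes other than CCNB2, CCNA2 and PLK1 have a bar across the TSS in every list, CCNB2 lacks the orange bar, CCNA2 the grey one, and PLK1 has a grey bar only, 531 to 1024 bases past its TSS.

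Of the cyclins that partner CDK1, only CCNB1 had a promoter peak in all 3 lists. Its peaks ran from -331 to 630 in shCON CDT, from -397 to 347 in shRB CDT and from -243 to 415 in shCON DHT, in bases from the TSS along the chromosome. All 3 were at the score cap of 1000, the highest value the authors' score takes. The CDK1 peaks, from -324 to 715, -344 to 606 and -475 to 575 in the same order, scored 848, 905 and 588. Scores can be compared only as ranks within a list, so each is given below as the share of its own list that scored lower. On that measure CDK1 stood at 57.1% in shCON CDT, 58.8% in shRB CDT and 37.6% in shCON DHT, and a peak at the cap stood at 67.5%, 64.9% and 73.0%.

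CCNB2, the second B-type cyclin, was the one member with a promoter peak in both control lists and none after RB knockdown. Its peak (chromosome 15, hg19) ran from 59397175 to 59397638 in shCON CDT, with a score of 520 and 22.2% of the list lower. In shCON DHT it ran from 59396909 to 59397742, with a score of 821 and 61.6% lower. The shRB CDT list held no peak within 100 kb of CCNB2, and the nearest was 171 kb from the TSS. In the lowest band of shCON CDT scores (below the first quartile), where the first of these peaks fell, 61.9% of peaks had no shRB CDT counterpart. In the band from the median to below the cap of shCON DHT, where the second fell, the share was 13.2%. Among 200 kb tiles with a peak in both shCON lists, 5.12% held none in shRB CDT. Those tiles include ones with several peaks, whereas the CCNB2 window held 1 in each shCON list. The share among tiles with 1 peak in each was not computed.

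CCNA2, the cyclin of S phase and G2, showed the other arrangement: no promoter peak in shCON CDT and one in each of the other lists. The shRB CDT peak (chromosome 4, 122744568 to 122745326) held the TSS, scored 936 and stood above 60.9% of its list. The shCON DHT peak (122744175 to 122744856) scored 556, stood above 32.6% and ended 232 bases from the TSS, on the transcribed side, as CCNA2 lies on the minus strand. Both overlapped each other, and the nearest shCON CDT peak was 45.7 kb from the TSS. In the bands of score that held these peaks, 28.3% of shRB CDT peaks and 50.1% of shCON DHT peaks had no shCON CDT counterpart. Neither CCNB2 nor CCNA2 thus had a promoter peak at the cap, and a site that a list lacks was not measured as closed.

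The mitotic kinases differed from each other. AURKA had promoter peaks at the cap in every list, from -562 to 746 in shCON CDT, from -781 to 456 in shRB CDT and from -163 to 573 in shCON DHT. PLK1 had 1 promoter peak, in shCON CDT, with the low score of 443 and 7.51% of the list lower. It lay from 23690732 to 23691225 on chromosome 16, 531 bases past the TSS on the transcribed side. In that lowest band of shCON CDT scores 72.3% of peaks had no shCON DHT counterpart and 61.9% had no shRB CDT counterpart. The nearest peaks to the PLK1 TSS in those lists were 36.9 kb and 37.1 kb away.

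The genes that act on the anaphase-promoting complex were in every list. UBE2C, its ubiquitin-conjugating enzyme, had peaks at the cap across the TSS in all 3, from -425 to 757 in shCON CDT, from -528 to 784 in shRB CDT and from -350 to 74 in shCON DHT. In shCON DHT a second UBE2C peak followed from 172 to 845, with a score of 459. CDC20, its activator, was split in the same list, with peaks from -283 to 113 (score 921) and from 166 to 644 (score 1000). The other lists each had 1 CDC20 peak, from -373 to 543 with a score of 775 in shCON CDT and from -435 to 600 with a score of 1000 in shRB CDT. The split UBE2C and CDC20 promoters, both in shCON DHT, were the only promoters with more than 1 peak.

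FOXM1 and TOP2A had promoter peaks whose extent varied between lists, from 1007 to 1646 bp for FOXM1 and from 919 to 1528 bp for TOP2A. The FOXM1 peak ran from -68 to 938 in shCON CDT, from -687 to 958 in shRB CDT and from -769 to 750 in shCON DHT, with 38.8%, 22.0% and 66.9% of each list lower. It was the lowest ranked of the 8 promoter peaks in shRB CDT. The TOP2A peak ran from -500 to 1027 in shCON CDT (score 988), from -603 to 315 in shRB CDT (1000) and from -482 to 494 in shCON DHT (1000). In the GRCh38 RefSeq table FOXM1 overlaps ITFG2 and RHNO1, CCNA2 overlaps EXOSC9, PLK1 overlaps ERN2, and AURKA stands next to CSTF1. These neighbours were taken by name only, and whether an overlap reaches the promoter of the member was not determined. Peaks at these 4 members were placed by distance to the member's TSS and were not assigned between neighbouring genes.

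**Figure D3:**
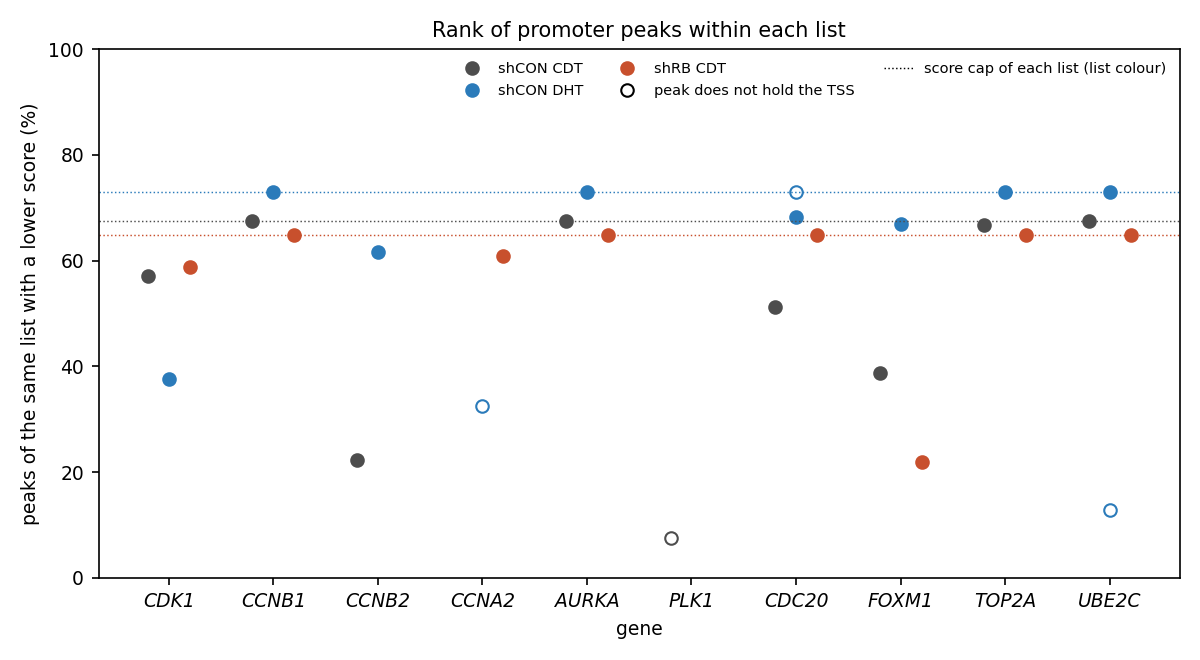
Rank of each promoter peak, as the percentage of peaks of the same list with a lower score; filled circles hold the TSS, open circles do not, and dotted lines mark the cap in each list. The TSS peaks of CCNB1, AURKA and UBE2C sit at the cap in every list, whereas CCNB2 in shCON CDT (22.2%), FOXM1 in shRB CDT (22.0%), the second UBE2C peak in shCON DHT (12.9%) and PLK1 in shCON CDT (7.51%) are low.

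Across the 7 members with a promoter peak in all lists, 591 bp (CCNB1) to 1011 bp (UBE2C) of sequence were covered in every condition. For the peak nearest the TSS, the width in shRB CDT over that in shCON CDT ranged from 0.601 (TOP2A) to 1.63 (FOXM1) with a median of 0.946. It was wider at 3 members and narrower at 4, beside 57.5% and 42.2% of 6240 sites with exactly 1 peak in every list. At those sites the median ratio was 1.04 and the quartiles were 0.910 and 1.22. For shCON DHT over shCON CDT, 8 members could be compared. The ratio ranged from 0.359 (UBE2C) to 1.80 (CCNB2) with a median of 0.662, beside 0.896 at the 6240 sites. With the split UBE2C and CDC20 peaks summed, the members' median was 0.942. CCNB2, UBE2C and CDC20 were not among those sites, as CCNB2 lacked a shRB CDT peak and UBE2C and CDC20 were split in shCON DHT. Both ratios share the shCON CDT list.

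Distal peaks numbered 28 in shCON CDT, 29 in shRB CDT and 24 in shCON DHT. They were placed by distance to a member's TSS alone. Without an hg19 annotation it could not be checked which of them lie at the starts of neighbouring genes. Promoter and distal peaks together gave a mean of 3.70, 3.70 and 3.50 peaks per 200 kb window around a member, where all 200 kb tiles had means of 0.783, 0.959 and 0.835. The members' windows were chosen to hold a gene start, which tiles were not. Counts ran from 0 for CCNB2 in shRB CDT to 7 for CCNB1 in shCON CDT and for UBE2C in shRB CDT. FOXM1 had 5 peaks in each list. From shCON CDT to shRB CDT the count was higher at 4 members (CDK1, AURKA, TOP2A and UBE2C), lower at 3 (CCNB1, CCNB2 and PLK1) and equal at 3. Over all tiles, 21.8% had more and 11.0% had fewer peaks in shRB CDT. For shCON DHT against shCON CDT the count was higher at 3 members, lower at 5 and equal at 2, beside 18.3% of tiles with more and 14.6% with fewer. These are counts of peaks, and a site split into neighbouring peaks counts more. The promoters of UBE2C and CDC20 were split in shCON DHT, and a distal CCNB1 site in shCON CDT. Without these splits the 3 genes would be equal between the shCON lists. AURKA had a distal site split in shRB CDT, without which it would be equal between the CDT lists. Tiles without any peak made up 59.3% (shCON CDT), 55.1% (shRB CDT) and 57.1% (shCON DHT), so many tiles were equal because they were empty. Their shares with more or fewer peaks are therefore no like measure for the members' windows.

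**Figure D4:**
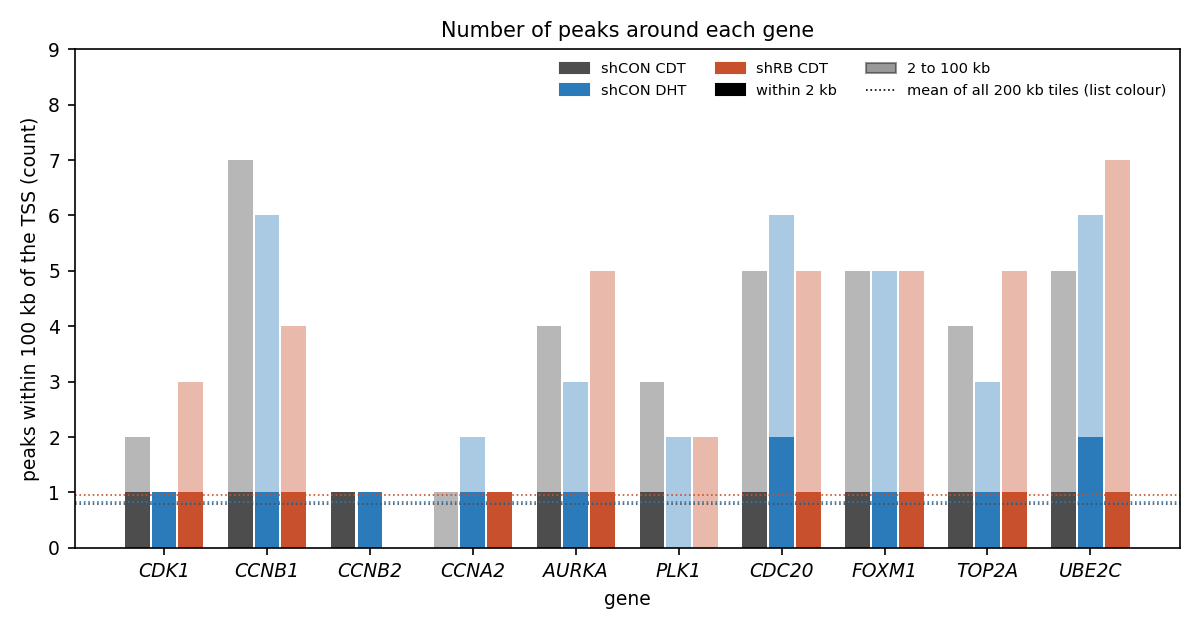
Number of peaks within 100 kb of each TSS in shCON CDT (grey), shCON DHT (blue) and shRB CDT (orange); solid parts are promoter peaks, pale parts distal peaks, and dotted lines the mean of all 200 kb tiles in each list. UBE2C reaches 7 in shRB CDT, CCNB1 falls from 7 in shCON CDT to 4 in shRB CDT, and CCNB2 has 0 in shRB CDT. Counts are of peaks and not of regions, and neighbouring CCNB1 peaks in shCON CDT belong to the same region.

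The first comparison of the study asked how RB depletion changes accessible sites without hormone. Of the 29 distal shRB CDT peaks near members, 7 (24.1%, exact 95% binomial interval 10.3 to 43.5) had no shCON CDT counterpart, beside 40.9% of all shRB CDT peaks, which lies inside that interval. Of the 28 distal shCON CDT peaks, 7 (25%, 10.7 to 44.9) had no shRB CDT counterpart, beside 26.8% of the list. At the promoters these numbers were 1 of 8 (CCNA2) and 2 of 9 (CCNB2 and PLK1). With promoters included, the unmatched shCON CDT peaks numbered 9, and 2 when the lists were limited to their 50% best scored peaks. The unmatched shRB CDT peaks numbered 8, and 7 under the same limit. The share over all peaks under that limit was not computed. Intervals cover counting error only and treat neighbouring peaks as independent.

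The second comparison asked how 3 hours of DHT change the sites of control cells. Of the 24 distal shCON DHT peaks, 3 (12.5%, 2.66 to 32.4) had no shCON CDT counterpart, beside 36.7% of the list, which is above that interval. Conversely, 7 of 28 distal shCON CDT peaks (25%, 10.7 to 44.9) had no shCON DHT counterpart, beside 34.6%. At the promoters it was 1 of 11 shCON DHT peaks (CCNA2) and 1 of 9 shCON CDT peaks (PLK1). Peaks with high scores are matched more often in any list, and 37.5% of the distal shCON DHT peaks were at the cap, beside 27.0% of that list. Its part in the low unmatched share was not tested. The count moved with the choice of peaks and overlap: with promoters included, the unmatched shCON DHT peaks numbered 4, but 10 among the 50% best scored peaks of the lists and 11 with a 50% reciprocal overlap, which also took the unmatched shCON CDT peaks from 8 to 13. The share over all peaks was not computed under these settings, so the changes cannot be read as particular to the members.

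Directly between the treated groups, 10 of 29 distal shRB CDT peaks (34.5%, 17.9 to 54.3) had no shCON DHT counterpart, beside 42.1% of the list. In the other direction it was 5 of 24 (20.8%, 7.13 to 42.2), beside 30.6%. All 8 shRB CDT promoter peaks overlapped a shCON DHT peak, and 1 of 11 shCON DHT promoter peaks (CCNB2) lacked a shRB CDT counterpart.

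Joined into regions, 17 of the 35 distal sites (48.6%) were in all 3 lists, beside 34.0% of all regions. Another 4 (11.4%, beside 6.66% of all regions) were in both CDT lists, 3 (8.57%, beside 2.69%) in both shCON lists and 2 (5.71%, beside 5.90%) in shCON DHT and shRB CDT. Of the sites in a single list, 5 (14.3%, beside 22.5%) were in shRB CDT, 3 (8.57%, beside 12.6%) in shCON CDT and 1 (2.86%, beside 15.7%) in shCON DHT. All 4 distal regions of FOXM1 were common to the 3 lists, the nearest of them 13.1 kb from the TSS and at the cap in every list. UBE2C had 4 common regions and 2 of shRB CDT only. CCNB1 had 3 common regions and 2 in the shCON lists alone, at -92.8 to -90.6 kb and 67.3 to 68.3 kb. CCNB2 had no distal region.

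**Figure D5:**
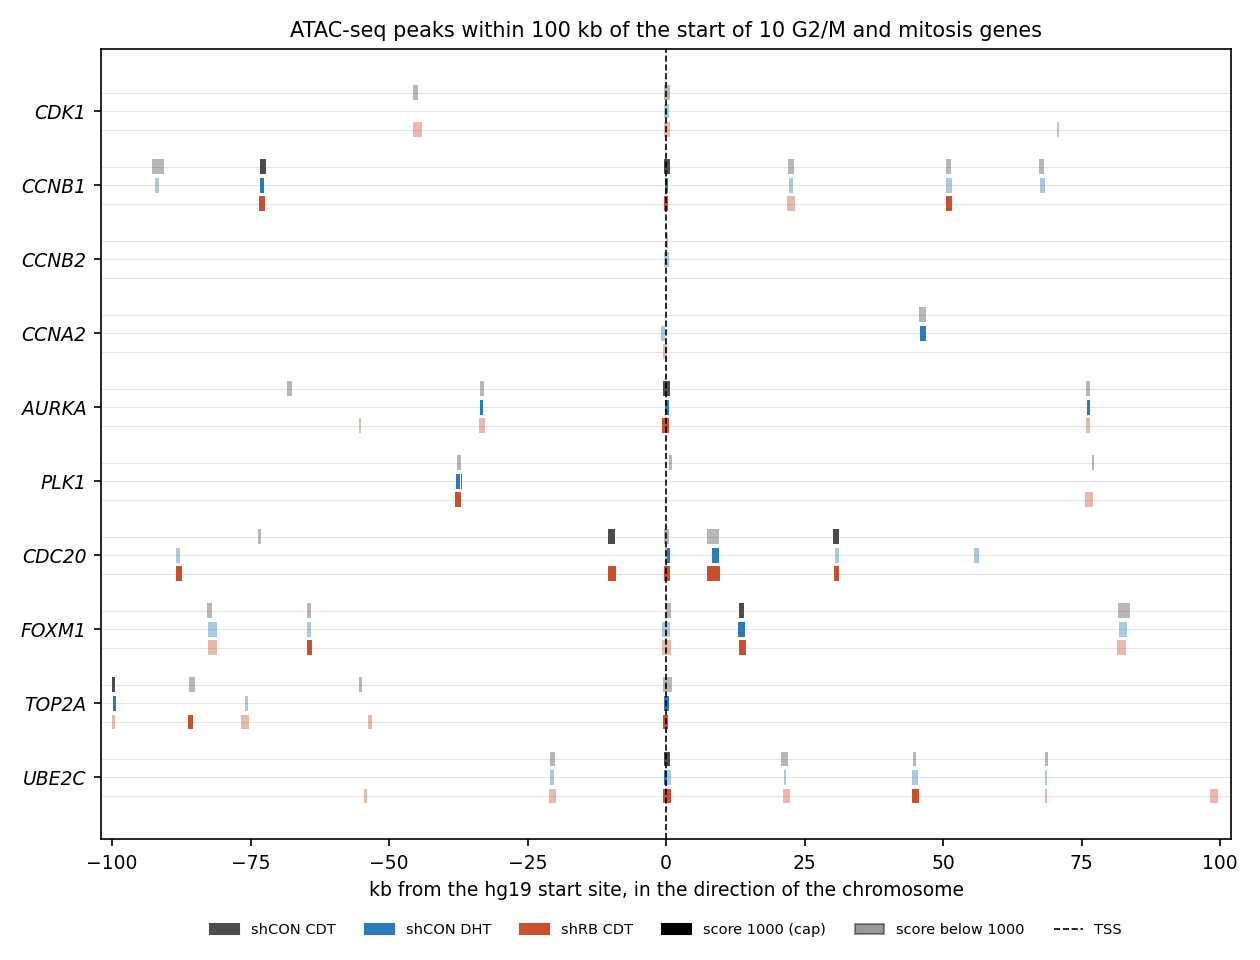
All peaks within 100 kb of each TSS (dashed line), in kb along the chromosome, with the colours and solid or pale bars of the promoter plot. The FOXM1 window repeats the same sites in all lists, the UBE2C window adds 2 orange bars to 4 shared distal sites, the CCNB2 window is empty apart from its promoter, and the CDC20 site 9 to 10 kb below the TSS lacks a blue bar.

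Of the 9 members with a distal region, the nearest one was in all 3 lists for 6: CCNB1 (21.7 kb), AURKA (32.7 kb), PLK1 (36.9 kb), CDC20 (7.29 kb), FOXM1 (13.1 kb) and UBE2C (19.8 kb). For CDK1 it lay 44.1 kb away and was in both CDT lists. For CCNA2 it lay 45.7 kb away and was in both shCON lists, at the cap in shCON DHT with a score of 716 in shCON CDT. That region (chromosome 4, 122790748 to 122792070) was the sole distal region in the CCNA2 window, and was not assigned to a gene. A shRB CDT counterpart was lacking for 1.87% of shCON DHT peaks at the cap and for 34.9% of shCON CDT peaks in the band of score 716. For TOP2A the nearest region, 53.2 kb away, was in shRB CDT only, with a score of 491. A shCON CDT peak of score 439 stood 1.06 kb from it, and both were in the lowest band of their lists.

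Beside CDC20 lay 1 distal site that was at the cap in both CDT lists and unlisted after DHT, singled out here after its values were seen. This region, on chromosome 1 from 43814118 to 43815545, was 9.08 kb from the TSS, and the nearest shCON DHT peak was 8.93 kb from the shCON CDT one. At the cap, 4.55% of shCON CDT peaks and 6.91% of shRB CDT peaks had no shCON DHT counterpart. CDC20 also had a region absent from shCON CDT at the cap in shRB CDT (43736112 to 43737160, score 692 in shCON DHT), 87.5 kb away, where 5.41% of shRB CDT peaks at the cap, and 21.3% of shCON DHT peaks in the band of score 692, lacked a shCON CDT counterpart. The other region in shCON DHT and shRB CDT without shCON CDT was 75.4 kb from TOP2A, from 38497448 to 38498836 on chromosome 17, with scores of 560 and 588.

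Distal regions held by 1 list ranked below the median of that list. The 5 of shRB CDT only had between 6.45% and 22.8% of their list lower, the highest ranked being at UBE2C (chromosome 20, 44386770 to 44387209, score 529), CDK1 (chromosome 10, 62608800 to 62609115, score 526) and UBE2C again (44539336 to 44540918, score 524). The other 2 were at AURKA, with a score of 441, and the TOP2A region above. The 3 of shCON CDT only were at CDC20 (43750986 to 43751456, score 694), AURKA (chromosome 20, 54898849 to 54899816, score 499) and TOP2A (chromosome 17, 38518786 to 38519258, score 439). The single region of shCON DHT only was at CDC20 (43880271 to 43881039, score 618), above 41.7% of its list. None of these 9 regions lay within 50 kb of a TSS.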

How the data were processed

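Members were placed at the hg19 TSS positions given with the gene list. The data are 3 peak lists, each pooling 2 libraries of 75000 cells per reaction, transposed for 30 minutes at 37 °C, per the labels' protocols. Per the labels, list names mention an irreproducible discovery rate of 0.1, filtering, merging and scoring. Coordinates are hg19 per the submitters' processing notes; no source used here gives the aligner, the peak caller or any read shift. The deposited score, whole numbers from 413 to 1000 with a cap at 1000, was used as the authors made it and only for ranks within a list; how they computed it is not stated. The lists held 12096 (shCON CDT), 12896 (shCON DHT) and 14788 (shRB CDT) peaks, with no read counts.

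Peaks overlapping by at least 1 bp were counterparts, and chains of them were joined into regions. Score bands were split at each list's quartile, median and cap. Tiles ran from the start of each chromosome to its last peak. Motifs were searched on both strands of RefSeq promoters (GRCh38.p14, 250 bases before to 50 after the start); neighbouring genes were taken by name only. Shares carry exact (Clopper-Pearson) 95% intervals. Named regions were the up to 3 highest ranked per class and the nearest to each member. The members and lists were chosen with earlier results of these data known. Code was tested on simulated data and recovered 18 of 18 planted answers. Python 3.11.15, numpy 2.4.6, pandas 2.3.3, scipy 1.17.1 and matplotlib 3.10.9 were used. Whether paired libraries are separate cultures is not stated in the labels.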

Additional observations from a re-analysis of the deposited data

How the results depend on the processing

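Promoter counts of the members were within 1.5 times of those reported under each alternative: windows of 1 kb and 5 kb, peaks placed by midpoint, and lists cut to 12096 peaks changed none, and the top 50% of each list by score gave 6 in shCON CDT (without CCNB2, FOXM1 and PLK1), 7 in shCON DHT (without CCNA2 and CDK1) and 7 in shRB CDT (without FOXM1). Distal peaks, in the order shCON CDT, shCON DHT and shRB CDT, numbered 12, 11 and 11 within 50 kb and 43, 41 and 44 within 200 kb, by construction of the window, and 13 in shCON CDT and 18 in shRB CDT in the top 50%. Regions within 50 kb, promoters included, numbered 5 in exactly 2 lists, 1 in the shCON CDT list alone, and 0 in shRB CDT alone as in shCON DHT alone (0). In the top 50% there were 12 in all 3 lists, 3 unique to shRB CDT, 6 unique to shCON DHT and 1 unique to shCON CDT. Lists cut to the shortest gave 3 unique to shRB CDT. Peaks without a counterpart, promoters included, were 8 in shRB CDT and 9 in shCON CDT for the RB comparison, and 4 in shCON DHT and 8 in shCON CDT for DHT. Within 50 kb these were 1, 3, 1 and 3. In the top 50% they were 7, 2, 10 and 6 in the same order. With a 50% reciprocal overlap the DHT comparison gave 11 and 13. Shares over all peaks were not computed for these alternatives. The median DHT to CDT width ratio of 0.662 became 0.942 with split peaks summed. Of 75 alternative values, 49 stayed the same and 26 moved. Counts were taken as the same within 1.5 times, but width medians only where equal and tile means only where nearly equal. No paired analysis was possible because the authors merged replicates 1 and 2 before deposit, which also prevents leaving out a replicate. The planned peak counts for other pathway genes could not be run without an hg19 annotation. Depth is unknown, so an unlisted site may lie just under the threshold of its list.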
